A study of Mus musculus with 3 samples.

Results

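The windows described here cover the paternally methylated imprinted loci of the mouse, namely H19, Dlk1-Meg3, Rasgrf1 and Zdbf2, in sperm of mice given the anthracycline doxorubicin (DXR), a chemotherapy drug that traps topoisomerase II on DNA. Members were all 500 bp windows annotated to 1 of the 5 genes H19, Meg3, Dlk1, Rasgrf1 or Zdbf2, together with intergenic windows of the same chromosome within 50000 bp of a gene's outermost windows. This rule used position alone and took 63 of the 143198 windows of the deposited table. Of these, 22 were annotated to a gene and 41 were intergenic in the deposited annotation, 18 of which overlap a RefSeq gene, mostly predicted ones; the loci held 12 at H19, 29 at Dlk1-Meg3, 14 at Rasgrf1 and 8 at Zdbf2. The 50000 bp edge was positional: the outermost window at Zdbf2 lay exactly on it, with scores of 1.57, 1.12 and 0.978 in the vehicle control, low dose and high dose libraries, and the next one, 63 kb out, had scores of 1.24, 0.600 and 0.972.

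C57BL/6 mice, 14 weeks old at collection, had received 0.02 mg/kg DXR (low dose), 0.2 mg/kg DXR (high dose) or saline (vehicle control) through intraperitoneal injections, 2 a week over 5 weeks, between 8 and 13 weeks of age. Sperm was taken from the cauda epididymis 4 days after the last injection, and its DNA was enriched for methylated fragments with MBD2, a methyl-CpG-binding protein, and sequenced (MBD-seq). There was 1 library per group, the labels give no number of animals for it, and so no difference below has a replicate check, a test or an error between animals. Differences are differences between these 3 libraries.

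Imprinted genes are expressed from 1 parental allele, and the choice is set by control regions whose DNA methylation is laid down in the germ line. Most such regions are methylated in oocytes. The few methylated in sperm include the H19/Igf2 control region, the intergenic control region (IG-DMR) between Dlk1 and Meg3, and the region upstream of Rasgrf1. The region upstream of Zdbf2 is methylated on the paternal allele, but is not counted here as a region set in the germ line. At the H19/Igf2 control region, the IG-DMR and the Rasgrf1 region, methylation is set in fetal germ cells before birth. There it is kept through spermatogenesis and survives the erasure that follows fertilisation. Mature sperm is therefore known to carry these 3 control regions in the methylated state.

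Sequences transcribed from inside member windows are available for 2 microRNA genes, one processed from the H19 transcript and one from the Meg3 transcript, and are shown because they mark what the scored windows hold. Capitals mark the seed, bases 2 to 8, and the sequences are from RefSeq (GRCm38.p6).
mmu-miR-675-5p: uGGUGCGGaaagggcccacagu
mmu-miR-675-3p: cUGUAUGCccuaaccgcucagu
mmu-miR-770-5p: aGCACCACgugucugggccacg
mmu-miR-770-3p: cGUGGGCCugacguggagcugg
The miR-675 arms lie at chr7:142577112-142577133 and chr7:142577078-142577099 on the minus strand, in the exonic H19 window chr7:142577001-142577500. The miR-770 arms lie at chr12:109563710-109563731 and chr12:109563744-109563765 on the plus strand, in the Meg3 window chr12:109563501-109564000. No seed was shared among these 4 arms.

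Gene starts are shown next, because none of them fell in a listed window while windows upstream of them did. RefSeq promoters of 300 bases (250 before to 50 after the start) were matched for Dlk1, Meg3, Rasgrf1 and Zdbf2, with 6 promoters in all, and 0 of the 6 overlapped a listed window, against 4.07% of all 32851 mouse promoters in that collection. Capitals mark CpG sites, the bases at which mammalian DNA is methylated.
Meg3, chr12:109540746-109541045, plus strand: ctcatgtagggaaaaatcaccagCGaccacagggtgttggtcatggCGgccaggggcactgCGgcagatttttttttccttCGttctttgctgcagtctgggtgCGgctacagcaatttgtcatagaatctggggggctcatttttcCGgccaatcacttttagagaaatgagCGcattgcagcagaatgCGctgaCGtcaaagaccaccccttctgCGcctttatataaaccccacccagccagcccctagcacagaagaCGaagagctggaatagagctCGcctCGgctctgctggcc
Rasgrf1, chr9:89909525-89909824, plus strand: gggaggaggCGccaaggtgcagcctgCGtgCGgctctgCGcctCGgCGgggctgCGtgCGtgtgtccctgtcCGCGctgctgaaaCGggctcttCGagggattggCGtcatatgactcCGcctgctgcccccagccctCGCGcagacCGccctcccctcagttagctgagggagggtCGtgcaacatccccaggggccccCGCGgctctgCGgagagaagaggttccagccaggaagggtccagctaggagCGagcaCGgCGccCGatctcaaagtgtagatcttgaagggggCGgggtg
Zdbf2, chr1:63273019-63273318, plus strand: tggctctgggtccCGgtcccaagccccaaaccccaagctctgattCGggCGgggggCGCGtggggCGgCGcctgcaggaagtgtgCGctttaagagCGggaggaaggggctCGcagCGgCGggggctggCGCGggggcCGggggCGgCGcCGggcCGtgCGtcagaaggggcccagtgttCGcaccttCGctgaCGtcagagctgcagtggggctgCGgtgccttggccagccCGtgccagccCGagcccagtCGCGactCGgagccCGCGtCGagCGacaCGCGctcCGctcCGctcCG
These hold 13, 26 and 38 CpG sites, where the median promoter holds 7, and the nearest listed windows lay 4956, 14177 and 4519 bp away. The other 3 promoters are that of Dlk1, with 9 CpG sites and 7129 bp from a listed window, a second Meg3 start with 1 CpG site and 554 bp from one, and a far upstream Zdbf2 start with 15 CpG sites and 20608 bp from one. The letters TGCCGC, bound by the imprint-protecting zinc finger protein ZFP57 when methylated, were searched on both strands; the Meg3 promoter shown holds 1 match, the far upstream Zdbf2 promoter 3 and the other 4 hold 0, and 11.6% of all promoters hold at least 1. Every listed window had a score above 1 in at least 1 library, so those at or under 1 throughout were not analysed here, and the level at these gene starts is not known.

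The values are RMS, a methylation score that the authors computed for each window and library, and RPM, the read density scaled to library size. The file headers do not spell RMS out. Dividing RMS by AMS, a companion score, gives 1 number per window, called the factor here and used as a stand-in for CpG content. Changes are log2((treated RMS + 0.766)/(control RMS + 0.766)), which understates changes of low windows, and the limit used for calling a window higher or lower was a change of at least 1 in size (2-fold). Over all windows the median change was -0.10 at the high dose and -0.05 at the low dose against the vehicle control. Dividing each library by its median moved the median of all windows upward by 0.14 at the high dose, to 0.04. Negative changes smaller than that shift therefore have no settled sign. Small positive changes could turn on subtracting the trend with read density and factor, as at chr9:89879501-89880000 (0.10 to -0.05 at the high dose).

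Member windows were of ordinary strength. Their median RMS was 2.03, 1.83 and 1.67 in the vehicle control, low dose and high dose libraries, where the medians of all windows were 1.80, 1.67 and 1.57. Their median factor was 2.6, as for all windows. RMS was above 1 in 61 member windows in the vehicle control library, in 55 of the low dose library and in 47 of the high dose library, and 44 exceeded 1 in all 3 libraries. Another 7 were listed through the vehicle control library alone and 0 through either treated library alone. Those 7, of which 5 are intergenic, had both treated scores at or under 1 and were in the table for their control score, so their lying below the control was set by the listing: chr7:142571501, chr7:142579501, chr12:109420001, chr12:109460501, chr12:109556001, chr12:109583501 and chr1:63253001. Over all windows 14.3% were listed through the vehicle control alone, and 11.1% of members. Conversely, chr9:89924001 and chr12:109425001 had control scores under 1 and were listed through both treated libraries. Their lying above the control was likewise set by the listing.

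**Figure D1:**
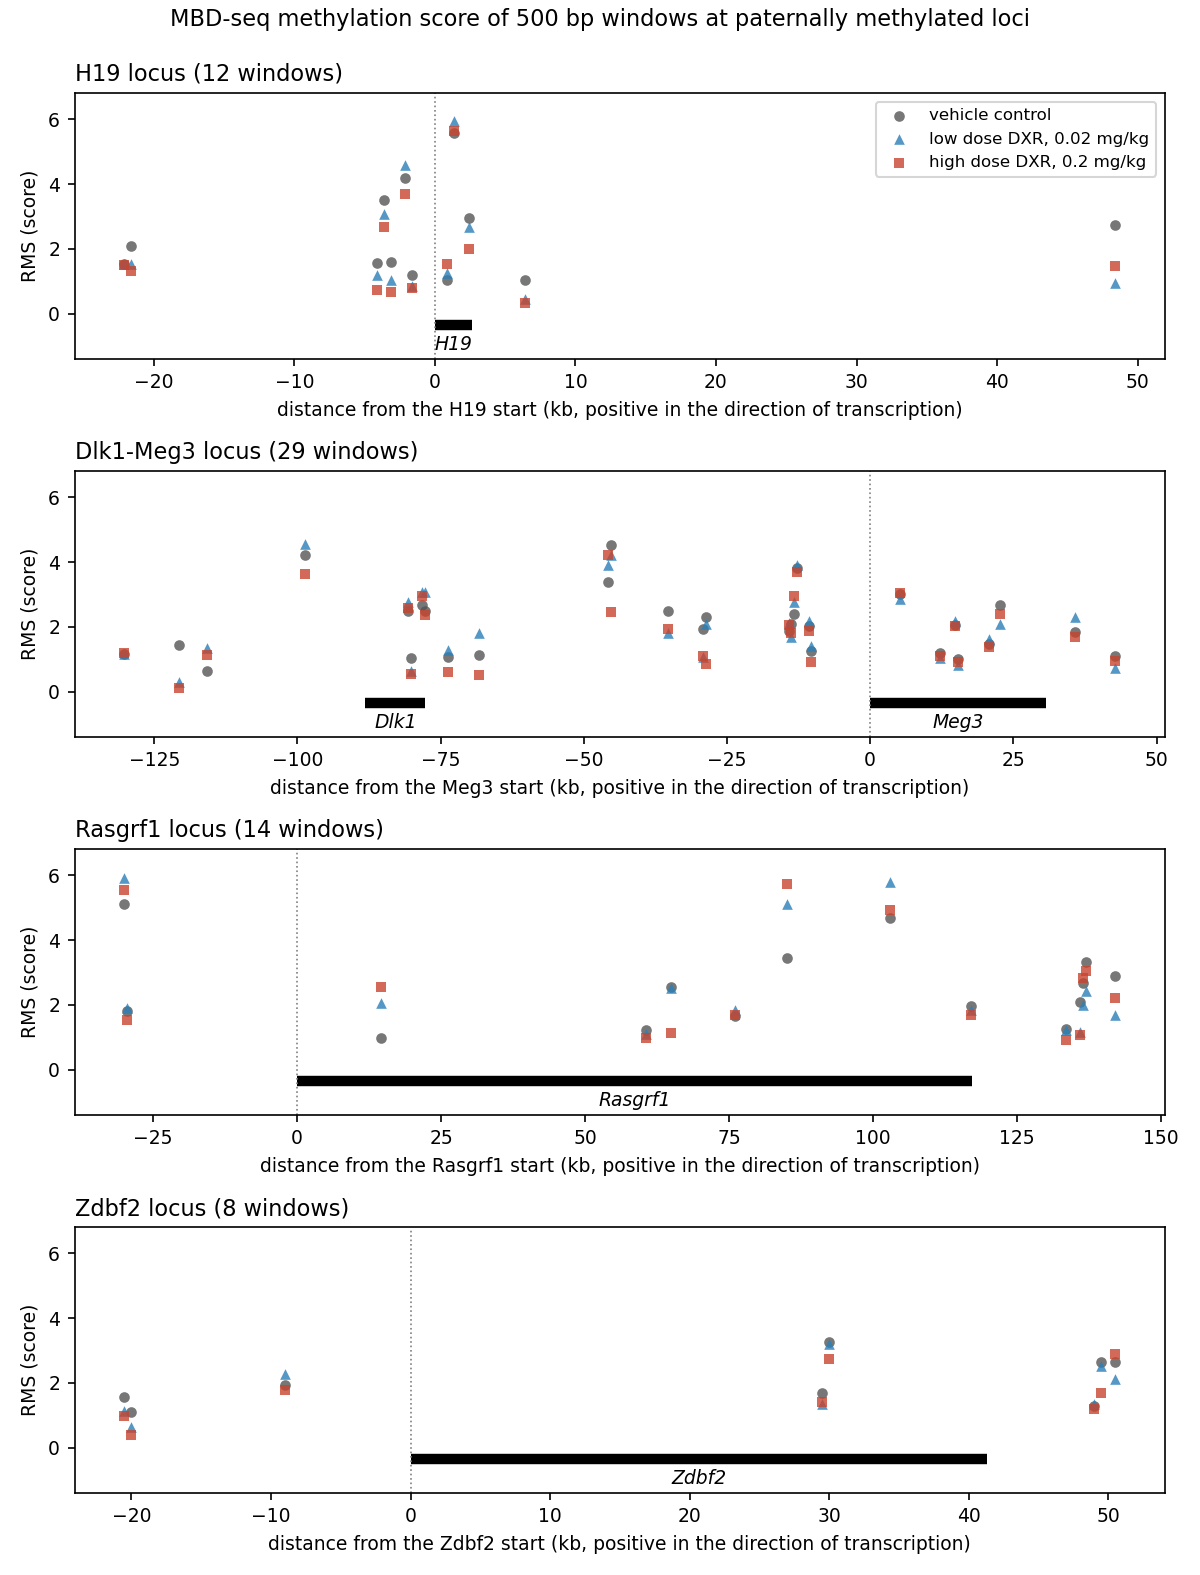
RMS of each member window (y axis, score) against the distance of its centre from the gene start (x axis, kb, positive in the direction of transcription), 1 panel per locus; circles are the vehicle control library, triangles the low dose, squares the high dose, and black bars the gene spans in RefSeq. The 3 libraries lie close together at most windows, and the strongest windows, with RMS above 5, stand in the H19 transcript, upstream of Rasgrf1 and in Rasgrf1.

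Upstream of H19, where the control region of H19 and of its neighbour Igf2 lies and where CTCF binds the unmethylated maternal allele, 5 windows were listed between 1.60 and 4.10 kb from the start of H19. The one at chr7:142580001-142580500 was the strongest, with RMS of 4.20, 4.60 and 3.69 in the vehicle control, low dose and high dose libraries. The control value exceeded that of 91.3% of all windows. The high dose value was the lowest of the 3, and the change was -0.16 at the high dose and 0.11 at the low dose; in RPM, the same window had 6.53 at the high dose against 6.12 in the vehicle control, so that RMS and RPM differed in direction.

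The other 4 of these windows had their highest RMS in the vehicle control and their lowest at the high dose. At chr7:142581501-142582000, RMS was 3.50, 3.08 and 2.69 in the vehicle control, low dose and high dose libraries, a change of -0.31 at the high dose. At chr7:142581001-142581500 it was 1.60, 1.04 and 0.651, a change of -0.74. Further out, chr7:142582001-142582500 had 1.56, 1.21 and 0.739, a change of -0.63. The window nearest to H19, chr7:142579501-142580000, had 1.19, 0.858 and 0.797, a change of -0.33; it is one of those listed through the vehicle control alone. The steepest differences were thus in windows of low score, and none passed the limit.

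Summed over these 5 windows, RMS was 8.56 at the high dose and 10.8 at the low dose against 12.1 in the vehicle control, that is 71.0% and 89.4% of the control sum. The same sums over all windows of the table were 93.2% and 95.8%. The median change of the 5 windows was -0.33 at the high dose, with 5 of 5 below the control; it was -0.21 with 4 of 5 below after dividing each library by its median, -0.30 with 5 of 5 after quantile normalization, -0.34 with 4 of 5 after subtracting the trend with read density and factor, and -0.23 with 4 of 5 in RPM. Of the 5, 2 had RMS above 1 in all 3 libraries. The window that gives the median of -0.33, chr7:142579501-142580000, was listed through the vehicle control alone, so its direction was set by the listing. The median at the low dose was -0.24, and -0.06 with the trend subtracted.

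Between Dlk1 and Meg3, the IG-DMR controls the paternally expressed Dlk1 and the maternally expressed noncoding RNA Meg3. On the Meg3 side, 6 windows were listed between 10.2 and 14.2 kb upstream of the Meg3 start. The one at chr12:109528001-109528500 had the highest factor of all members, 6.8, above 99.4% of all windows, and RMS of 3.83, 3.92 and 3.70 in the vehicle control, low dose and high dose libraries. Its change was -0.04 at the high dose and 0.03 at the low dose, while its RPM was 10.4 at the high dose and 11.1 at the low dose, against 8.07 in the vehicle control. The 3 scores lay close together and the read density was higher in both treated libraries.

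Beside it, chr12:109527501-109528000 had RMS of 2.40, 2.77 and 2.97 in the vehicle control, low dose and high dose libraries, and was highest at the high dose. The windows chr12:109526501-109527000 (1.87, 2.12 and 2.06), chr12:109527001-109527500 (2.09, 1.68 and 1.82) and chr12:109530001-109530500 (2.03, 2.18 and 1.88), in the same order of libraries, had changes between -0.22 and 0.13 over both doses. The weakest, chr12:109530501-109531000, had 1.27, 1.41 and 0.911, a change of -0.28 at the high dose. No order of the 3 libraries was shared by all 6 windows. At the low dose 5 of the 6 were above the control (median change 0.09), and at the high dose 2 were (median -0.06). Their summed RMS was 98.9% of control at the high dose and 104% at the low dose.

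Upstream of Rasgrf1, a paternally expressed activator of Ras signalling in the brain, 2 adjoining windows about 30 kb before the start were listed. The first, chr9:89879501-89880000, was the strongest control-region-side window of the 4 loci, with a factor of 6.2 and RMS of 5.11, 5.91 and 5.55 in the vehicle control, low dose and high dose libraries. In that order, 95.8%, 97.3% and 96.1% of all windows of the same library had a lower score. Both treated libraries were above the control, with a change of 0.18 for the low and 0.10 for the high dose. Its neighbour, chr9:89880001-89880500, was weaker, at 1.81, 1.90 and 1.53.

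Upstream of Zdbf2, a paternally expressed zinc finger gene, 1 window was listed on the control-region side, chr1:63264001-63264500, 9.02 kb before the start. Its RMS was 1.92, 2.26 and 1.79 in the vehicle control, low dose and high dose libraries, with a low dose change of 0.17 and a high dose change of -0.08. In RefSeq, but not in the deposited annotation, this window lies inside a longer form of Zdbf2 that starts further upstream.

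Over all 14 control-region-side windows, 11 were below the control at the high dose (median change -0.15) and 5 were below it at the low dose (median 0.06). Both counts include chr7:142579501-142580000, listed through the vehicle control alone, whose direction was set by the listing. After dividing each library by its median, the high dose count was 7 of 14 and the median 0.00, and after subtracting the trend it was 8 of 14 with a median of -0.06. The grouping is positional, by distance upstream of the gene start, and was set with the values known. Of these 14 windows, 92.9% had a listed window next to them, compared with 57.1% of all members and 55.1% of all windows.

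**Figure D2:**
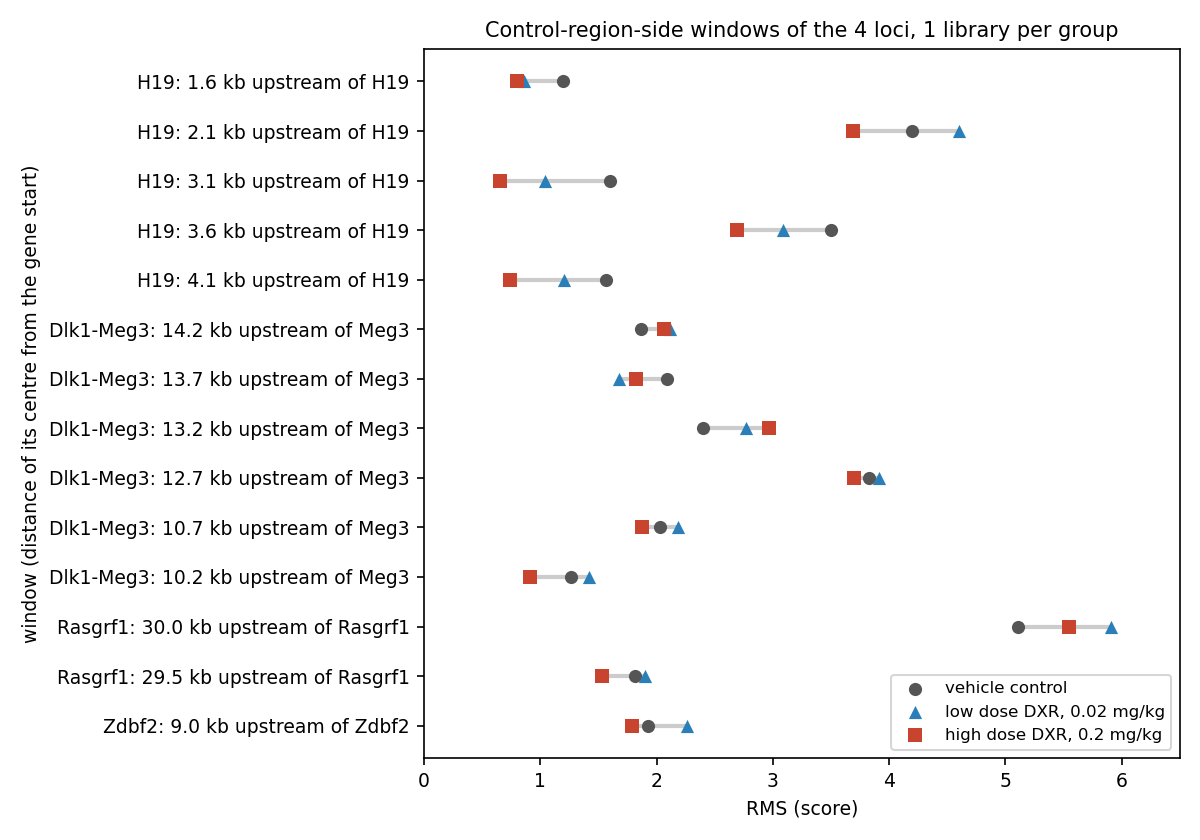
RMS (x axis, score) of the 14 control-region-side windows (y axis, by locus and distance of the centre from the gene start); circles are the vehicle control library, triangles the low dose, squares the high dose, with 1 library per group. At H19 the square is the leftmost symbol in each of the 5 windows; upstream of Meg3 and Rasgrf1 the order of the symbols varies between windows.

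Within the transcribed genes the scores were close to the control at most windows. H19, a maternally expressed noncoding RNA, had the strongest gene window of all members in the vehicle control library, chr7:142576501-142577000 (exonic), with RMS of 5.58, 5.94 and 5.65 in the vehicle control, low dose and high dose libraries and a change of 0.02 at the high dose. The neighbouring window that holds the miR-675 sequences had 1.04, 1.24 and 1.52, the highest at the high dose (change 0.34). At the 3′ end, chr7:142575501-142576000 had 2.94, 2.68 and 1.99 (change -0.43). Summed over the 3 windows, RMS was 95.8% of control at the high dose and 103% at the low dose.

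Dlk1 encodes a transmembrane protein related to Notch ligands. Its 4 exonic windows, from chr12:109460001 to chr12:109463500, had control RMS between 1.05 and 2.67. Changes at the high dose ran from -0.47 to 0.11 and at the low dose from -0.36 to 0.24; the lowest at both doses was chr12:109460501-109461000, with RMS of 1.05, 0.645 and 0.547 in the vehicle control, low dose and high dose libraries. The other 3 windows were above the control at the low dose.

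Meg3 had 6 gene windows. The window that overlaps an annotated first exon, chr12:109546001-109546500, had RMS of 3.01, 2.85 and 3.05 in the vehicle control, low dose and high dose libraries, with a change of 0.01 at the high dose. The window that holds miR-770 had 2.69, 2.10 and 2.39 and the highest RPM of the 6 in the vehicle control, at 7.52 for the high dose and 6.93 for the low dose, against 8.28. Across the 6 windows the change ran from -0.13 to 0.01 at the high dose and from -0.27 to 0.10 at the low dose.

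Rasgrf1 held the member window with the largest upward change at each dose. In exon 2, chr9:89924001-89924500 had RMS of 0.959, 2.07 and 2.57 and RPM of 0.985, 1.79 and 2.05 in the vehicle control, low dose and high dose libraries. Both treated libraries were above the control, with changes of 0.95 at the high dose and 0.72 at the low dose, under the limit. Its control score was under 1, so it was listed through its treated scores and its upward direction was set by the listing. At the high dose the change was 1.08 after dividing by the library median, 1.18 after quantile normalization, 1.22 after subtracting the trend and 1.22 with a pseudocount 3 times smaller, which are past the limit.

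In exon 15, chr9:89994501-89995000, a window outside the naming rule and chosen after its values were seen, had RMS of 3.44, 5.12 and 5.73 and RPM of 6.46, 9.57 and 10.3 in the vehicle control, low dose and high dose libraries. Its changes were 0.63 at the high dose and 0.48 at the low dose, above the 95th percentile of all windows in each comparison (0.44 and 0.46). Exon 9 went the other way at the high dose: chr9:89974501-89975000 had 2.56, 2.51 and 1.13, a change of -0.82 at the high dose and -0.03 at the low dose.

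The strongest Rasgrf1 gene window of the vehicle control, in exon 23 (chr9:90012501-90013000), had 4.68, 5.79 and 4.94 in the vehicle control, low dose and high dose libraries. The remaining 3 gene windows, in exon 7, an intron and exon 27, had changes between -0.20 and 0.11 over both doses. Summed over the 7 gene windows, RMS was 113% of control at the high dose and 123% at the low dose, while the median change was 0.02 and 0.11; the sums rest mostly on exons 2, 15 and 23. With RPM in place of RMS the median at the high dose was -0.02.

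Zdbf2 had 2 adjoining exonic windows. The stronger, chr1:63303001-63303500, had RMS of 3.26, 3.20 and 2.74 in the vehicle control, low dose and high dose libraries, a change of -0.20 at the high dose. The other, chr1:63302501-63303000, had 1.69, 1.35 and 1.42, a change of -0.17.

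Of the intergenic flanks away from the control regions, the largest change of all members was upstream of Dlk1. There, chr12:109420001-109420500, 32.6 kb before the start, had RMS of 1.44, 0.292 and 0.0998 and RPM of 1.07, 0.236 and 0.0862 in the vehicle control, low dose and high dose libraries. It was lower at both doses, with changes of -1.35 at the high dose and -1.06 at the low dose, but it was listed through the vehicle control alone, so that its direction was set by the listing. Its control score exceeded that of 35.5% of all windows, and with the trend subtracted the changes were -0.61 and -0.47, inside the limit.

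The next window towards Dlk1, chr12:109425001-109425500, went the opposite way, with RMS of 0.619, 1.33 and 1.13 in the vehicle control, low dose and high dose libraries and changes of 0.60 (low dose) and 0.45 (high dose). Its control score was under 1, so it was listed through its treated scores and its direction was also set by the listing. Of the other windows upstream of Dlk1, chr12:109442001-109442500 was strong (4.21, 4.55 and 3.65) and chr12:109410501-109411000 weak (1.17, 1.15 and 1.19). At the high dose these windows changed by -0.17 and 0.02, in that order. Upstream flanks of Dlk1 thus differed in direction, but the directions at chr12:109420001 and chr12:109425001 were set by the listing.

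Between Dlk1 and the control-region side of Meg3 lay 7 further windows, of which 6 were below the control at the high dose and 4 at the low dose. Their median change was -0.54 at the high dose, against -0.09 at the low dose, and their summed RMS was 69.7% and 96.3% of control. At chr12:109512001-109512500, RMS was 2.29, 2.08 and 0.864 in the vehicle control, low dose and high dose libraries (change -0.91 at the high dose and -0.10 at the low dose). At chr12:109495501-109496000 it was 4.52, 4.21 and 2.47 (-0.71 and -0.09).

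The window that adjoins it, chr12:109495001-109495500, was above the control at both doses, with 3.38, 3.90 and 4.22 in the vehicle control, low dose and high dose libraries. Closer to Dlk1, chr12:109472501-109473000 had 1.13, 1.80 and 0.512, the highest at the low dose. The other 3 had control RMS between 1.07 and 2.48 and changes between -0.54 and -0.26 at the high dose. In these 7 windows the median at the high dose was -0.41 after dividing by the library median, -0.25 after quantile normalization and -0.19 after subtracting the trend.

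Downstream of H19, chr7:142529501-142530000 was the second member past the limit at the low dose. Its RMS was 2.75, 0.958 and 1.45 in the vehicle control, low dose and high dose libraries, with changes of -1.03 (low dose) and -0.66 (high dose), and the lowest value was at the lower dose. The weak window chr7:142571501-142572000 had 1.05, 0.446 and 0.337. Some 22 kb upstream of H19, chr7:142599501-142600000 had 2.07, 1.54 and 1.31, and the adjoining chr7:142600001-142600500 had 1.52, 1.53 and 1.51.

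Downstream of Rasgrf1, 5 windows were listed, and 5 of 5 were below the control at the low dose (median change -0.35) and 4 of 5 at the high dose (median -0.27). The strongest, chr9:90046501-90047000, had RMS of 3.32, 2.44 and 3.06 in the vehicle control, low dose and high dose libraries, and chr9:90051501-90052000 had 2.89, 1.69 and 2.22. In both of these the low dose value was the lowest of the 3. The other 3 had changes between -0.64 and 0.06 at the high dose. Of the 7 Rasgrf1 gene windows, 3 were below the control at the low dose.

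Around Zdbf2, the upstream window chr1:63253001-63253500 had 1.10, 0.646 and 0.376 in the vehicle control, low dose and high dose libraries, a change of -0.70 at the high dose. It was listed through the vehicle control alone, so its direction was set by the listing. It and the adjoining chr1:63252501-63253000 also lie inside the longer RefSeq form of Zdbf2. Of the 3 windows downstream, chr1:63322501-63323000 had 2.65, 2.53 and 1.68 (-0.48), chr1:63323501-63324000 had 2.64, 2.12 and 2.90 (0.10), and chr1:63322001-63322500 had 1.27, 1.35 and 1.18 (-0.06). Downstream of Meg3, inside the span that RefSeq gives to Rtl1, chr12:109576501-109577000 had 1.84, 2.30 and 1.70 and chr12:109583501-109584000 had 1.10, 0.742 and 0.947.

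**Figure D3:**
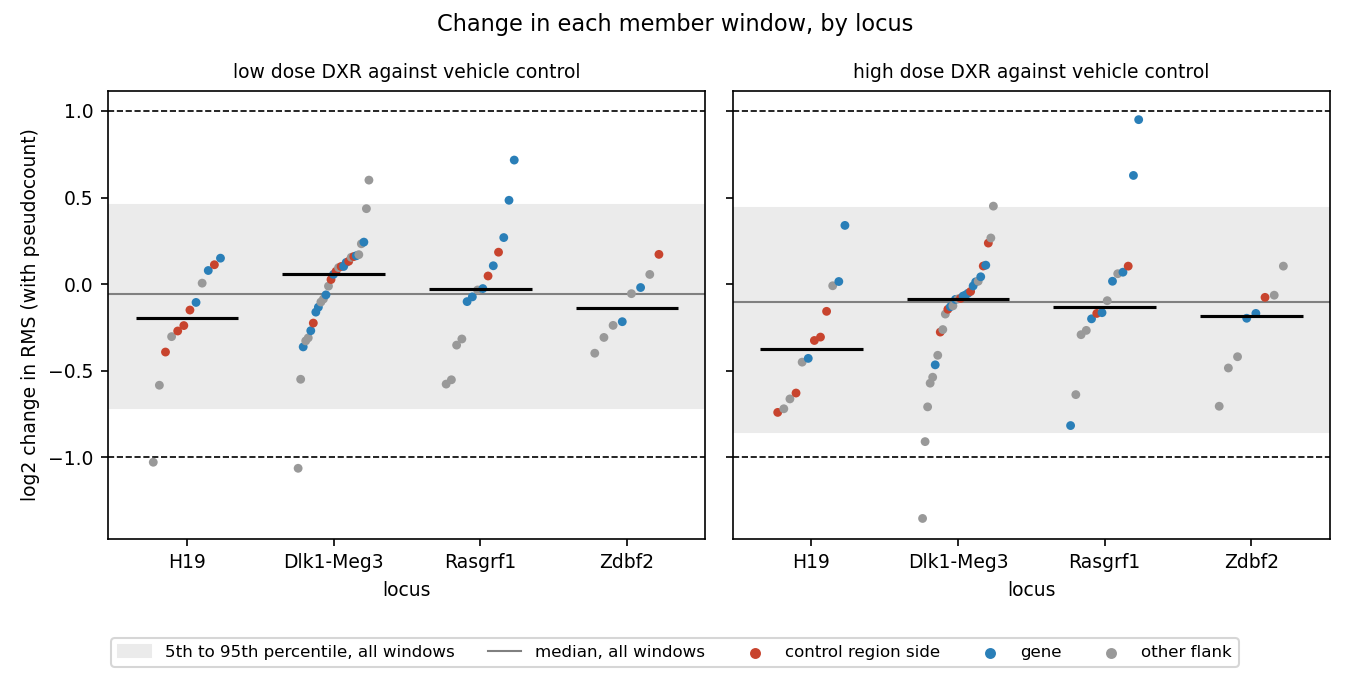
Log2 change in RMS with the pseudocount (y axis) of each member window, by locus (x axis), for the low dose (left) and the high dose (right) against the vehicle control; each point is a window coloured by position, black bars are medians, dashed lines the limit, the grey line the median of all windows and the grey band their 5th to 95th percentile. At the high dose 1 point lies below the lower limit, upstream of Dlk1, and 3 points lie above the band, of which 2 are gene windows of Rasgrf1 (0.95 and 0.63) and 1, just above it, is upstream of Dlk1 (0.45). The windows at 0.95 and 0.45 had control scores under 1 and were listed through their treated scores.

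Past the limit at the high dose against the vehicle control were 0 members higher and 1 lower, the window 32.6 kb upstream of Dlk1; among all windows 0.0824% passed it upward and 2.52% downward. For the low dose against the vehicle control there were 0 members higher and 2 lower, that window and the one downstream of H19, where the shares of all windows were 0.120% upward and 1.24% downward. For the high dose against the low dose, 0 were higher and 1 lower, chr12:109472501-109473000 with a change of -1.01, where these shares were 0.0293% and 0.330%. Of the windows lower at the high dose, 67.3% of the whole table and the 1 member were listed through the vehicle control alone. With 63 windows, the number of members past the limit is near what those background shares give. The balance of all windows depended on the scaling: at the high dose 118 were higher and 3605 lower, but 334 and 2172 after dividing by the library median, 694 and 993 after quantile normalization and 987 and 429 with the trend subtracted.

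The median change of the 63 members was -0.14 at the high dose, beside -0.10 for all windows, and -0.03 at the low dose, beside -0.05. Below the control at the high dose were 46 members (73.0%), where 60.8% of all windows were, and at the low dose 35 (55.6%), where 56.7% were. In size, 77.8% of members changed by less than 0.5 at the high dose and 87.3% at the low dose, and for all windows these shares were 78.8% and 83.9%. Without windows listed through the vehicle control alone, 39 of 56 members were below it at the high dose (69.6%), where 54.3% of all windows were. The vehicle control had the highest of the 3 scores in 31 members (49.2%), the low dose in 23 (36.5%) and the high dose in 9 (14.3%), where the shares of all windows were 46.5%, 28.4% and 25.1%.

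By locus, the high dose medians were -0.38 at H19, -0.09 at Dlk1-Meg3, -0.13 at Rasgrf1 and -0.18 at Zdbf2, while the low dose medians at these loci were -0.19, 0.06, -0.03 and -0.14. After dividing by the library median the high dose medians were -0.25, 0.05, 0.02 and -0.04, and with the trend subtracted they were -0.24, 0.01, -0.04 and 0.01, in the same order of loci. Restricted to the 7 H19 windows that exceeded 1 in every library, the median was -0.16, and for the gene windows of H19 alone it was 0.02. At H19, 10 of 12 windows were below the control at the high dose. Among them, chr7:142571501 and chr7:142579501 were listed through the vehicle control alone, so their direction was set by the listing. Without such windows the H19 median at the high dose was -0.37 over 10 windows.

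By position, 33 of the 41 intergenic members were below the control at the high dose (80.5%), with a median change of -0.26, whereas 56.6% of all intergenic windows of the table were, with a median of -0.06. Of the 22 gene members, 13 were below it, with a median of -0.06. The medians of intergenic members were -0.22 in RPM, -0.11 after dividing by the library median, -0.07 after quantile normalization and -0.07 with the trend subtracted, and in that order those of all intergenic windows were -0.04, 0.08, 0.04 and 0.01. Of the 33, 5 were listed through the vehicle control alone; without these, 28 of 36 were below the control (77.8%) with a median of -0.17, where all intergenic windows treated likewise had 50.3% below it and a median of -0.00. Among the 26 intergenic members with RMS above 1 in all 3 libraries, the median was -0.09. The intergenic members share 4 loci and adjoin one another in places, so they are not independent.

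By strength, the 13 members with a control RMS of 3 or more had medians of -0.04 at the high dose (range -0.71 to 0.63) and 0.08 at the low dose (-0.35 to 0.48), beside -0.02 and -0.03 for the 31064 windows of the table at that level. The other 50 members had medians of -0.17 and -0.09. Since both the choice of level and the change use the control library, these values are a description.

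**Figure D4:**
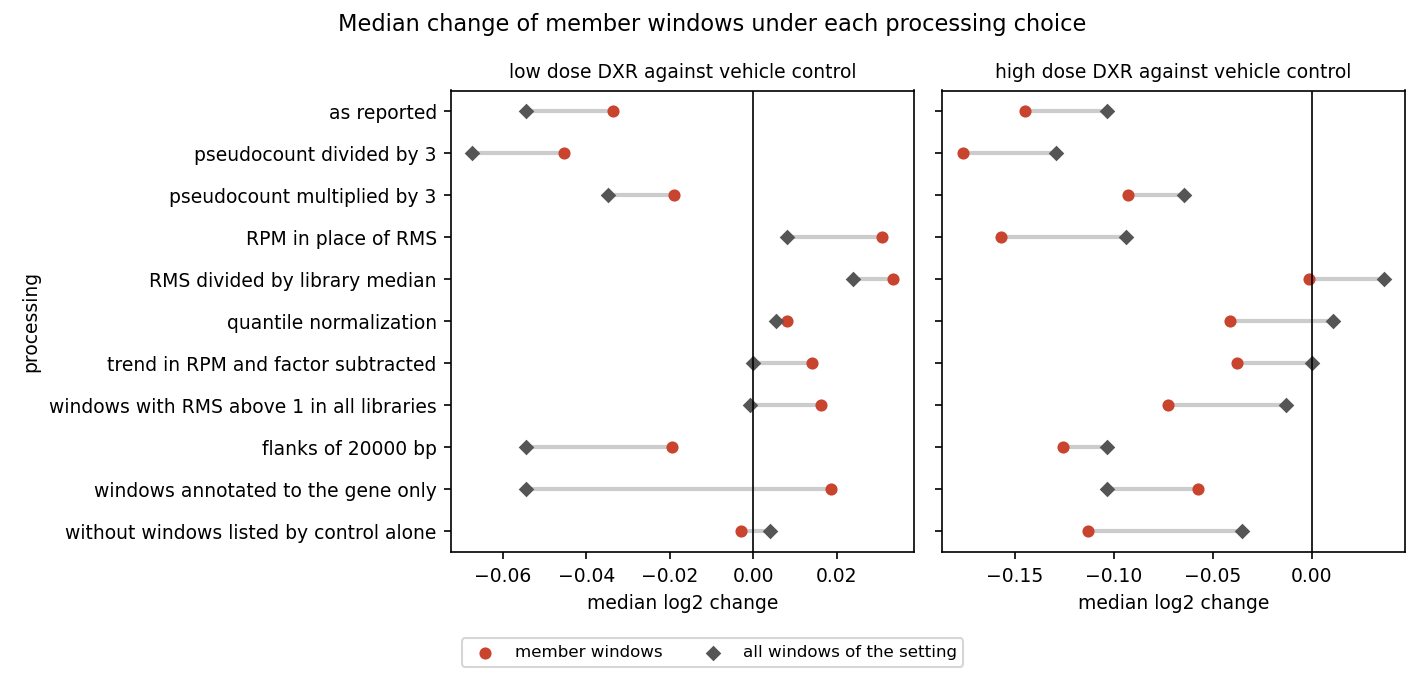
Median log2 change (x axis) of the member windows (circles) and of all windows (diamonds) under each processing choice (y axis), for the low dose (left) and the high dose (right) against the vehicle control. At the high dose the members lie left of all windows by less than 0.1, except when gene windows alone are kept, where they lie right of them.

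Other imprinted genes of the same clusters were looked up from a list of 22, of which 7 had a window, 47 windows in all. Past the limit were 0 in either direction at either dose, beside 2.52% and 1.24% of all windows lower at the high and low dose. The median change was -0.16 at the high dose and -0.10 at the low dose; the high dose median became -0.0034 after dividing by the library median, -0.04 after quantile normalization and -0.07 with the trend subtracted. Igf2, the growth factor gene controlled together with H19, had 4 windows, and 4 of 4 were above the control at both doses. Its first-exon window chr7:142655501-142656000 had RMS of 2.51, 3.08 and 3.60 in the vehicle control, low dose and high dose libraries (change 0.41 at the high dose and 0.23 at the low dose), and its strongest, chr7:142654001-142654500, had 7.42, 7.60 and 7.97. The median of the 4 Igf2 windows was 0.13 at the high dose. Dividing by the library median moved the median of all windows upward by 0.14, so that scaling does not turn a positive median. The Igf2 median with the trend subtracted is not given here, and its size has no replicate check. Rtl1, a retrotransposon-derived gene of the Dlk1-Meg3 cluster, had 8 windows, whose median at the high dose was -0.38, and its strongest window had 8.64, 10.1 and 9.05.

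Of 23 maternally methylated imprinted genes, whose control regions are known to be unmethylated in sperm, 13 had 124 windows, mostly within gene bodies. Past the limit at the high dose were 0 windows higher and 7 lower, in 6 genes (Airn, Cdh15, Gnas, Grb10, Slc38a4 and Trappc9), beside the 2.52% of all windows given above. For the low dose there were 0 higher and 4 lower, in Grb10, Trappc9 and Zim1, beside 1.24%. Some of these were listed through the vehicle control alone, so their direction was set by the listing. At the high dose they were chr17:12846001 (Airn), chr15:97050001 (Slc38a4) and chr15:72865501 (Trappc9). At the low dose they were chr15:72865501 and chr15:72929001 (Trappc9) and chr7:6692501 (Zim1). The high dose median of the 124 windows was -0.23. It was -0.11 after dividing by the library median, -0.08 after quantile normalization and -0.04 with the trend subtracted. Trappc9 held far more of these windows than any other gene, mostly intronic, so the medians rest largely on that gene. As a check for DNA of other cells, first-exon or upstream windows of 17 such genes were sought, and 4 were listed, in Gnas, Grb10 and Peg10. Their RMS ran from 0.952 to 4.16 in the vehicle control library, and the highest, in Gnas, had 1.89 at the high dose and 2.84 at the low dose against 4.16 in the vehicle control. A first-exon window need not be the control region, and the part of other cells' DNA in the results above was not tested.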

How the data were processed

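Per the file headers, the authors deposited 1 table of 500 bp windows with RPM values (read density, scaled by them to library size) and methylation scores (RMS and AMS), annotated against Ensembl transcripts. Per the submitters' processing notes the build was mm10. Of the aligner, read filters and report program nothing is stated in the sources used here. The 297037 lines held 143198 windows, each counted once. All per-sample columns were mapped to a library.

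Depth per window is unknown: deposited RPM values are whole multiples of a step (0.0214, 0.0197 and 0.0216 in the vehicle control, low dose and high dose libraries), but the headers do not equate a step with 1 read. The pseudocount, 0.766, is the 10th percentile of RMS values above 0. The trend is the median change of windows alike in mean RPM of the 3 libraries (20 bins) and in factor (5 bins). Both sets of bins were cut over all windows. Calls and trend removal were checked on simulated data, with changes larger than the limit planted only in windows of RMS above 3. Recovery of changes in weaker windows, which most members are, was not checked. With 1 library per group no test was run.

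Control-region-side windows are those within 5000 bp upstream of H19, 20000 bp of Meg3 and 10000 bp of Zdbf2, and all upstream of Rasgrf1. Distances are from RefSeq starts (GRCm38.p6, the assembly of mm10) to window centres; 97.0% of 75317 gene windows lay inside the RefSeq span of their gene. Members and lists were chosen with earlier results of these data known. Named windows were, for each gene, the 2 of highest control RMS, those of largest change in each direction and dose, first-exon windows, and all upstream of H19, Rasgrf1 and Zdbf2 and between Dlk1 and Meg3; this gave 40, and the others are described so that all 63 are accounted for. Alternatives were another pseudocount, RPM in place of RMS, division by library median, quantile normalization, trend subtraction, a filter on RMS, and shorter or no flanks. Python 3.11.15 with numpy 2.4.6, pandas 2.3.3 and matplotlib 3.10.9 was used.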

Additional observations from a re-analysis of the deposited data

How the results depend on the processing

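No paired analysis was possible because each group had 1 library, and no replicate could be left out. No result reversed past the limit. The median change of all windows at the high dose moved by 0.14 on dividing by the library median, by 0.11 under quantile normalization and by 0.10 on subtracting the trend. The median change of members at the high dose, -0.14, became -0.0017 on dividing by the library median, -0.041 under quantile normalization, -0.038 with the trend subtracted and -0.058 for gene windows alone. At the high dose against the low dose the median, -0.09, became -0.033, -0.037 and -0.033 under those 3 scalings. By locus, Dlk1-Meg3 at the high dose, -0.09, became 0.0508 on dividing by the library median, 0.025 under quantile normalization and 0.0085 with the trend subtracted, and at the low dose 0.06 became 0.14 on dividing by the library median; H19 at the high dose, -0.38, became 0.0152 for gene windows alone.

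Counts of members past the limit were small and moved easily. Members higher at the high dose numbered 1, in place of 0, with the pseudocount divided by 3, on dividing by the library median, under quantile normalization and with the trend subtracted, in each case the Rasgrf1 exon 2 window. That window was listed through its treated scores, so its direction was set by the listing. Members lower at the high dose numbered 6, in place of 1, with the pseudocount divided by 3, and 0 with it multiplied by 3, with the trend subtracted, for windows with RMS above 1 in all libraries, with flanks of 20000 bp and for gene windows alone. Members lower at the low dose numbered 1, in place of 2, under quantile normalization, and 0 with the pseudocount multiplied by 3, in RPM, on dividing by the library median, with the trend subtracted, for windows with RMS above 1 in all libraries, with flanks of 20000 bp and for gene windows alone. Members lower at the high dose against the low dose numbered 2, in place of 1, with the pseudocount divided by 3, and 0 with it multiplied by 3, in RPM, on dividing by the library median, under quantile normalization, with the trend subtracted, for windows with RMS above 1 in all libraries and for gene windows alone. The causes of these moves were not tested. The other 130 values of medians and counts were not counted as moved, but several of these medians changed sign. The low dose median of members, -0.03, became 0.03 in RPM and on dividing by the library median. At the high dose the Rasgrf1 median, -0.13, became 0.02 on dividing by the library median. The Zdbf2 median, -0.18, became 0.01 with the trend subtracted. Medians of groups by position were recomputed under alternatives added after seeing the data. Another such alternative left out windows listed through the vehicle control alone: members lower then numbered 0 at the high dose and 1 at the low dose. Read depth per window is unknown and limits the weak windows most.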
